A study of Mus musculus with 15 samples.

Results

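Collagen transcripts were measured by RNA sequencing in the tibialis anterior, a fast muscle of the lower leg, in 15 samples from male 129Pas mice aged 7 weeks. The 43 genes described here are protein-coding, with a symbol made of Col, a number, a and a number. *Col6a6*, whose symbol also has this form, was left out. The genes were found in the count table through their Ensembl identifiers in the mouse build GRCm38, among 30672 genes in all. *Mtm1* is the X-linked gene of myotubularin, a phosphoinositide phosphatase, and Mtm1-/y mice, in which it is knocked out, model X-linked myotubular myopathy. The groups were WT (n = 4), tamoxifen-treated WT (WT+TAM, n = 4), untreated Mtm1-/y (n = 4) and tamoxifen-treated Mtm1-/y (Mtm1-/y + TAM, n = 3). Tamoxifen modulates oestrogen receptors. The regimen and what the untreated mice received are not given in the sources used. The labels number the samples within a group but do not say that each came from a separate animal, so the p-values measure only the spread between these samples.

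Collagens are extracellular matrix proteins whose chains wind into triple helices. The fibrillar types form the fibrils of endomysium, perimysium and tendon, and the fibril-associated types (FACIT) sit on their surface. Type IV collagen builds the sheet of the basement membrane around muscle fibres, capillaries and nerve, type VI forms beaded filaments beside it, and the transmembrane types are held at the cell surface, in muscle in part at the neuromuscular junction. Most collagen mRNA in muscle comes from interstitial fibroblasts, tendon cells and cells of the vessel wall rather than from the muscle fibres.

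Of the 43 genes, 42 passed the filter on low counts and were tested among 15533 genes with the edgeR quasi-likelihood test. Called genes are those with an adjusted p (Benjamini-Hochberg, over all 15533) under 0.05. The gene that did not pass was *Col6a4*, a type VI chain, with 0 to 14 reads in a library. Levels are in CPM, read counts scaled by library size and the TMM factor, which allows for differences in composition. Fold changes are on the log2 scale with the standard error (SE) of the fit.

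Genomic sequence is shown for 3 places where the results below turn on a gene pair or a single gene. RefSeq windows for GRCm38.p6 were matched by symbol for 34 of the 43 genes. *Col4a4* and *Col4a3* lie head to head on chromosome 1 with 71 bases between their starts, and both were lower in the mutant. *Col10a1* had reads in mutant libraries and none in WT or WT+TAM. *Col7a1* was higher in the mutant with and without tamoxifen. The stretch between *Col4a4* and *Col4a3* is chr1:82586850-82586920 on the minus strand, and the 250 bases before the starts of *Col10a1* and *Col7a1* are chr10:34389731-34389980 and chr9:108953336-108953585, both on the plus strand. Capitals mark common promoter elements. In *Col10a1* the capitals are a TATA box, TATAAA. In *Col7a1* the first capitals are the reverse complement of a CCAAT box and read ATTGG. The later capitals there are a GC box, GGGCGG.
Between Col4a4 and Col4a3: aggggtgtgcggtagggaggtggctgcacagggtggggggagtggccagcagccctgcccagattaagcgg
Col10a1 upstream: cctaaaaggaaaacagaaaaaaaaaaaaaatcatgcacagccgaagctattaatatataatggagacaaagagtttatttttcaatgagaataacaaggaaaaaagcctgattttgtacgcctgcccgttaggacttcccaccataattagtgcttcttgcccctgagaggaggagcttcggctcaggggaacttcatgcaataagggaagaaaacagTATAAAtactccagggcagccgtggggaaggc
Col7a1 upstream: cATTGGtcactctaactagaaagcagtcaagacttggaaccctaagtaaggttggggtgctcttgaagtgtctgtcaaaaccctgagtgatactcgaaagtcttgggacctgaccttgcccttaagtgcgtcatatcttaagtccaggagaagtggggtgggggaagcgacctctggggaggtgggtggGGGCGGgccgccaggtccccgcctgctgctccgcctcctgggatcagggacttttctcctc

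The TATA box of *Col10a1* began 32 bases before the start, and the GC box and the reversed CCAAT box of *Col7a1* began 61 and 249 bases before it. None of the 3 motifs was found between *Col4a4* and *Col4a3*. Each motif was searched on both strands of windows from 250 bases before to 50 bases after the start. TATAAA was in 5 of 37 collagen windows (13.5%) against 13.6% of all 32851 windows, and CCAAT was in 13 (35.1%) against 37.4%. GGGCGG was in 22 (59.5%) against 35.7%. A match is a string of letters in a window and says nothing on binding.

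Total counts per library were 18042558 to 45823277. *Mtm1* was at 15.2 ± 0.294 CPM (SD, n = 4) in WT and 3.35 ± 0.338 (n = 4) in Mtm1-/y. Summed fast-fibre markers reached 163431 to 277158 CPM in every library. A pair of libraries stood apart. Of these, WT+TAM replicate 1 had the highest value of the 15 libraries in 16 of the 43 collagen genes and the lowest in 0. Mtm1-/y replicate 1 had the lowest value in 19 genes and the highest in 6. Summed over the 43 genes, WT+TAM replicate 1 held 6340 CPM against 1911 to 3480 in the rest of its group, and Mtm1-/y replicate 1 held 926 CPM against 1863 to 3059. Many collagen results below are given with and without these libraries. Both were singled out by their collagen values, which the fits also test. Results without them show how far a value rests on a library, and calls gained that way add no support. Fits of marker and list genes are given with all libraries only.

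The same WT+TAM library was high in markers of slow fibres, cartilage and bone, and tendon. All 8 slow-fibre markers were at their highest there, with a sum of 1376 CPM against 68.3 to 265 in the other libraries, and slow myosin *Myh7* reached 439 CPM. Of 7 cartilage and bone markers, 6 were highest there, with a sum of 36.8 CPM against 0.496 to 3.26. Bone sialoprotein *Ibsp* reached 11.8 CPM there and at most 0.277 elsewhere. The 8 tendon markers summed to 286 CPM in that library and to 97.8 to 119 in WT. In Mtm1-/y replicate 1 the tendon sum was 22.3 CPM, the lowest of all libraries, and 6 of 8 fast-fibre markers were at their lowest. The 8 adipocyte markers summed to 1513 CPM in the highest library and to 368 to 1049 CPM in the other 14. Of the 8, 6 were at their highest in WT+TAM replicate 1. In Mtm1-/y replicate 1, 1 of the 8 was at its highest and 1 at its lowest. The 6 satellite-cell markers summed to 101 CPM in Mtm1-/y replicate 1 and 31.4 to 58.8 CPM elsewhere. Of these, 2 were at their highest in that library and 1 at its lowest. Between Mtm1-/y and WT, 3 of the 6 were called lower and 1 higher, 66.7% called, beside 30.4% of all genes. Tendon sums were also high in WT+TAM replicate 4 (266 CPM), Mtm1-/y replicate 4 (355 CPM) and Mtm1-/y + TAM replicate 2 (244 CPM). The part of these markers in the collagen values was not tested. In whole muscle, fewer cells of a type and less RNA per cell cannot be told apart.

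**Figure D1:**
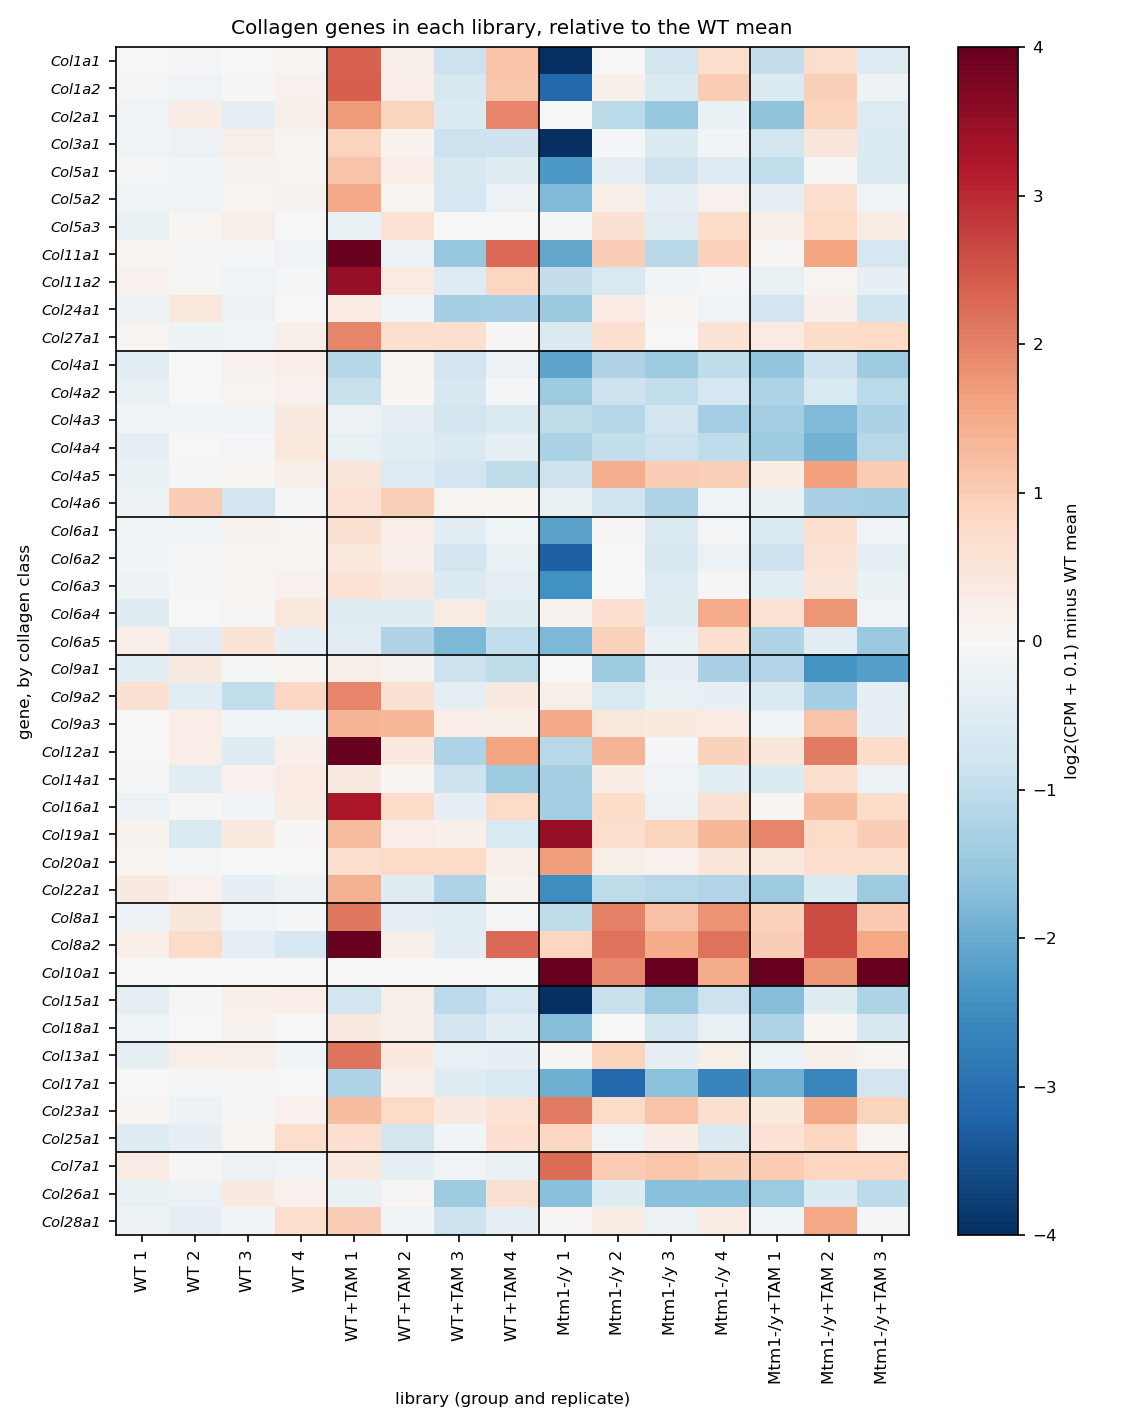
The 43 collagen genes (rows, by class) in the 15 libraries (columns, by group), as log2(CPM + 0.1) minus the mean of the 4 WT libraries, with colours ending at -4 and 4. WT+TAM replicate 1 is high over the fibrillar and fibril-associated classes, Mtm1-/y replicate 1 is low over the fibrillar and type VI classes, and *Col4a1* to *Col4a4* are low in all 7 mutant libraries.

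In WT muscle the order of levels per kilobase of exon was led by *Col4a1* at 22.3% of the summed collagen level, *Col4a2* at 16.7% and *Col3a1* at 15.9%. Over the WT libraries the ranges of *Col4a1* and *Col4a2* overlapped, as did those of *Col4a2* and *Col3a1*. *Col1a1* followed at 40.9 ± 1.93 CPM per kilobase and did not overlap with *Col3a1* above it or *Col1a2* below it. *Col1a2* and *Col6a1* overlapped, at 24.9 and 24.6. In plain CPM, the fibrillar class summed to 1285 to 1588 in WT, type IV to 849 to 1295, type VI to 262 to 317, the multiplexins to 93.4 to 140 and the fibril-associated class to 76.5 to 97.8. The network-forming, transmembrane and remaining types summed to 5.53 to 8.97, 5.98 to 6.83 and 51.6 to 72.0 CPM.

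Mtm1-/y libraries had type IV sums of 317, 542, 473 and 602 CPM, all below the lowest WT sum. Their fibrillar sums of 202, 1494, 946 and 1911 CPM lay on both sides of WT, and the type VI sums, at 49.3, 296, 193 and 272 CPM, lay below or within the WT range. Network-forming sums were 12.9, 26.8, 16.4 and 23.2 CPM in Mtm1-/y and 18.7, 40.1 and 17.5 CPM in Mtm1-/y + TAM, all above every WT library. These sums were not tested.

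Between Mtm1-/y and WT, 10 of the 42 tested collagen genes were called, 23.8%, where 30.4% of all genes tested were called. The 6 lower genes were *Col4a1*, *Col4a2*, *Col4a3*, *Col4a4*, *Col17a1* and *Col26a1*, and the 4 higher genes were *Col7a1*, *Col19a1*, *Col20a1* and *Col23a1*. Over all genes 14.9% were called lower and 15.5% higher. The median log2 fold change was -0.27 over the collagen genes and 0.00 over all genes. It was -0.04 without Mtm1-/y replicate 1, -0.49 without Mtm1-/y replicate 4, -0.42 without Mtm1-/y replicate 2 and 0.03 without both libraries that stood apart. By class, 4 of 6 type IV genes were called, all lower, and 0 of 11 fibrillar and 0 of 4 type VI genes. Without both libraries that stood apart, 14 collagen genes were called, 9 of them among these 10, while the share of all genes called went to 34.2%. With tamoxifen in both genotypes, 7 of 42 collagen genes were called between Mtm1-/y + TAM and WT+TAM, 16.7% against 20.1% of all genes. The 5 lower stand beside 9.46% of all genes called lower, and the 2 higher beside 10.6%. The comparisons of tamoxifen within a genotype called 0 collagen genes, against 0.309% of all genes in WT and 0.0129% in Mtm1-/y.

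**Figure D2:**
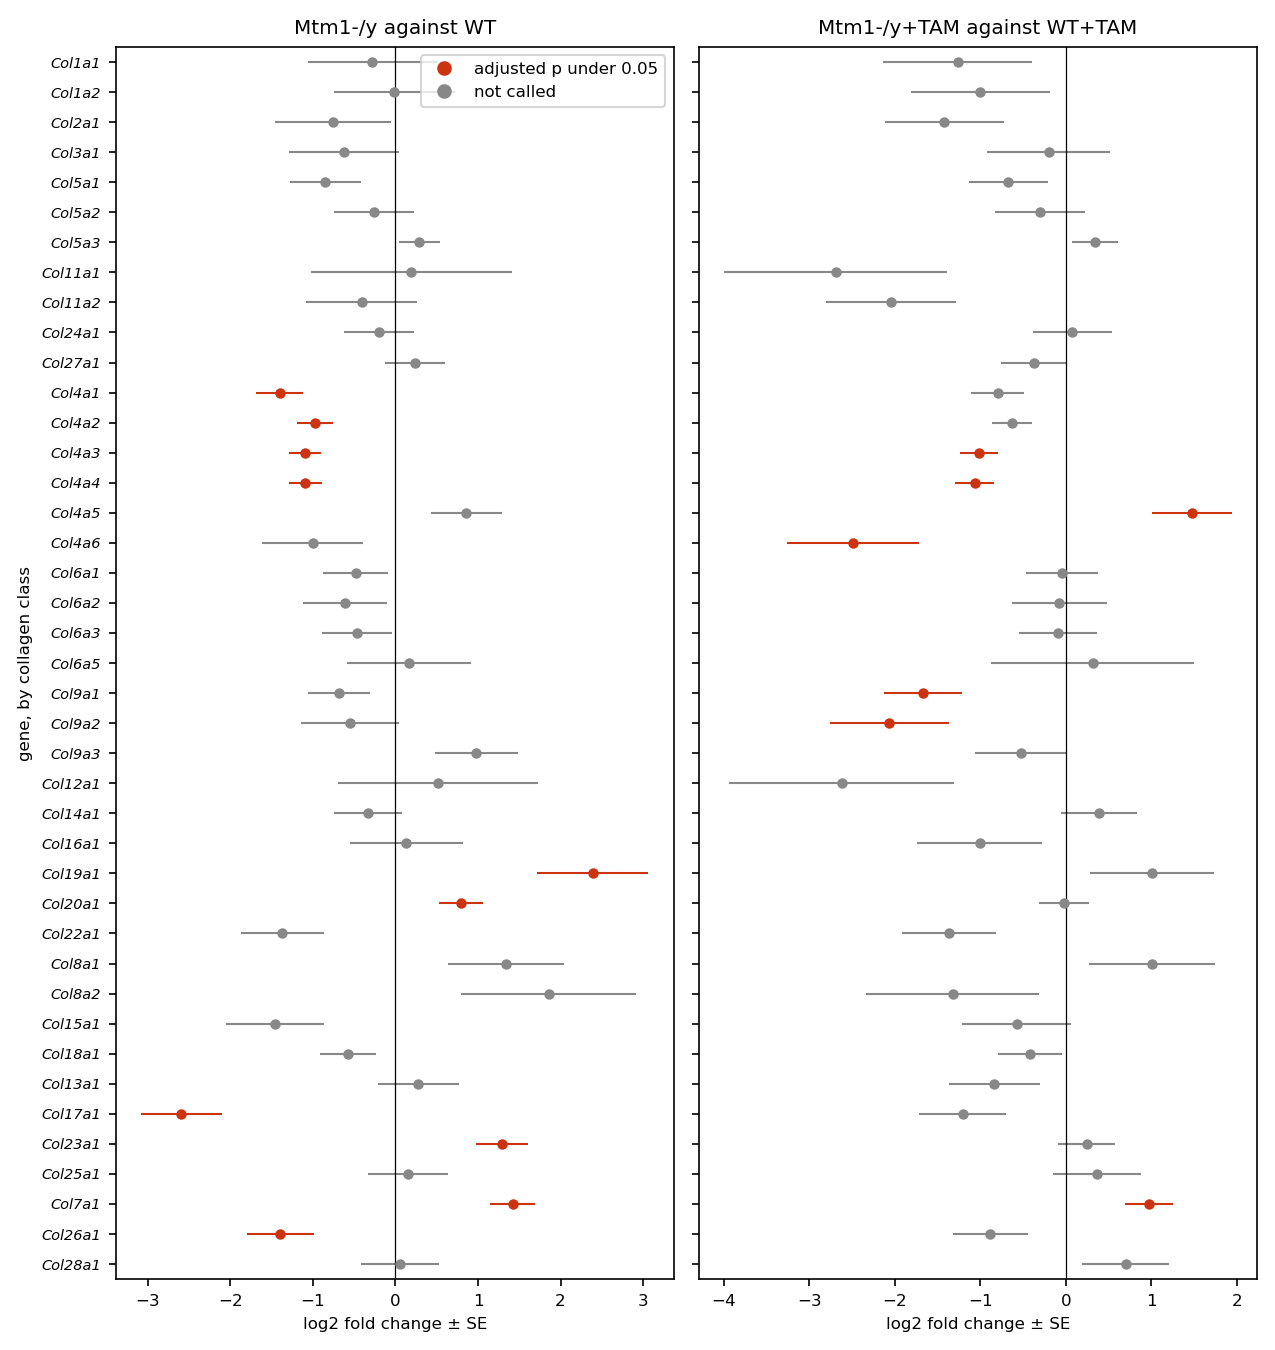
Log2 fold change (horizontal axis) with its SE (bars) of 41 tested collagen genes, by class, in Mtm1-/y against WT and in Mtm1-/y + TAM against WT+TAM, with called genes in red. *Col10a1* is left out because its WT and WT+TAM libraries are all at 0. *Col4a3* and *Col4a4* are lower and *Col7a1* higher in both panels, and the fibrillar and type VI genes are grey throughout.

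Of the 6 type IV genes, 4 were lower in Mtm1-/y. *Col4a1* and *Col4a2* encode the chains of almost every basement membrane and were, per kilobase of exon, the most abundant collagen mRNAs of WT muscle, at 88.5 ± 17.8 and 66.5 ± 8.85 CPM per kilobase (SD, n = 4). *Col4a1* was at 482, 646, 727 and 789 CPM in WT and at 151, 284, 243 and 319 CPM in Mtm1-/y. The groups did not overlap, and Mtm1-/y replicate 1 was the lowest. The log2 fold change was -1.41 ± 0.28, with an adjusted p of 0.00219.

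*Col4a2* was at 357, 442, 468 and 492 CPM in WT and at 160, 246, 218 and 273 CPM in Mtm1-/y. These groups did not overlap either, with a log2 fold change of -0.97 ± 0.22 and an adjusted p of 0.00413. With tamoxifen, *Col4a1* was at 225, 366 and 245 CPM in the mutant and at 295, 702, 387 and 555 CPM in WT+TAM. The log2 fold change of *Col4a1* was -0.80 ± 0.31, which missed the threshold at an adjusted p of 0.0789. For *Col4a2* it was -0.63 ± 0.24, at an adjusted p of 0.0730. DESeq2 called both genes, at adjusted p of 0.0306 and 0.0370. A fit with the replicate number as a block also called both, at 0.0175 and 0.0210, and limma-voom called neither. The lowest of its group for both was WT+TAM replicate 1. Without it both genes were called, at -0.98 with an adjusted p of 0.0283 for *Col4a1* and at -0.78 with 0.0210 for *Col4a2*. Both were also called without Mtm1-/y replicate 1, at -0.80 with an adjusted p of 0.0461 for *Col4a1* and at -0.63 with 0.0461 for *Col4a2*.

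*Col4a3* and *Col4a4*, the chains of the kidney glomerular membrane, were rare in this muscle. *Col4a3* was at 3.74, 3.71, 3.80 and 5.22 CPM in WT and at 1.99, 1.77, 2.41 and 1.54 CPM in Mtm1-/y. Every mutant library was below every WT library, with a log2 fold change of -1.10 ± 0.19 and an adjusted p of 0.000727. *Col4a4* was at 3.10, 3.99, 3.85 and 5.37 CPM in WT and at 1.59, 1.98, 2.16 and 1.93 CPM in Mtm1-/y. Its log2 fold change was -1.09 ± 0.20 with an adjusted p of 0.00106.

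The same pair was lower with tamoxifen. *Col4a3* was at 1.54, 1.14 and 1.64 CPM in Mtm1-/y + TAM and at 3.47, 3.06, 2.39 and 2.71 CPM in WT+TAM, a log2 fold change of -1.01 ± 0.22 with an adjusted p of 0.00489. *Col4a4* was at 1.43, 1.01 and 1.81 CPM against 3.27, 2.96, 2.63 and 3.05 CPM, a log2 fold change of -1.07 ± 0.23 with an adjusted p of 0.00482. Neither comparison showed overlap of the groups. Both genes stayed called in the 2 genotype comparisons under all 26 alternatives. The WT+TAM libraries all had less *Col4a3* than any WT library, with a log2 fold change of -0.51 ± 0.19 that missed the threshold at an adjusted p of 0.307.

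*Col4a5* and *Col4a6* are X-linked and lie head to head, with 1308 bases between their starts. *Col4a5* was at 2.46, 2.88, 3.14 and 3.49 CPM in WT and at 1.65, 8.30, 5.97 and 5.89 CPM in Mtm1-/y. The low value was replicate 1, and the other 3 mutant libraries lay above all WT libraries. With it, the log2 fold change was 0.86 ± 0.43 at an adjusted p of 0.150, and without it the gene was called at 1.16 with an adjusted p of 0.0199.

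With tamoxifen, *Col4a5* was at 3.66, 9.47 and 6.09 CPM in the mutant and at 4.21, 2.04, 1.71 and 1.41 CPM in WT+TAM. Only WT+TAM replicate 1 overlapped the mutant range. *Col4a5* was called at 1.47 ± 0.47 with an adjusted p of 0.0394, and at 1.92 with an adjusted p of 0.0109 without that library. It was lost in 9 of 26 alternatives, with adjusted p up to 0.189. Among the type IV genes it was the only one with a positive log2 fold change in both genotype comparisons.

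*Col4a6* was called lower in Mtm1-/y + TAM, at -2.49 ± 0.77 with an adjusted p of 0.0323, on 1 to 3 reads in a mutant library and 6 to 10 in a WT+TAM library. It was lost in 3 of 20 alternatives that tested it. Between Mtm1-/y and WT, with 1 to 8 reads against 2 to 13, it was not called, at an adjusted p of 0.228.

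**Figure D3:**
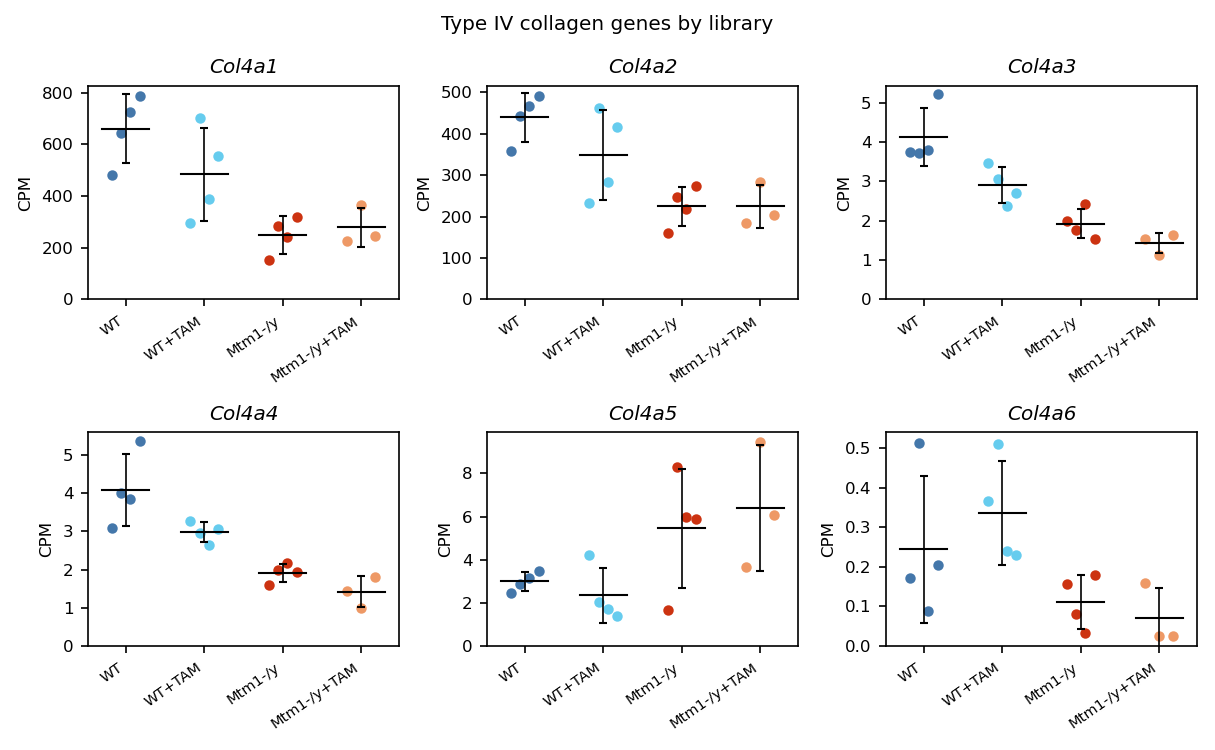
CPM of the 6 type IV genes (vertical axes, each from 0) in every library of the 4 groups, with the group mean (line) and SD (bars). *Col4a1* and *Col4a2* lie between 151 and 319 CPM in Mtm1-/y against 357 to 789 CPM in WT, and *Col4a5* is the gene whose mutant libraries mostly lie above WT.

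Most markers of vessel cells were lower in Mtm1-/y, as were *Col4a1* to *Col4a4* but not *Col4a5*. All 8 endothelial markers were detected in all 15 libraries, and their sum was 567 to 720 CPM in WT, 345 to 415 in Mtm1-/y, 408 to 686 in WT+TAM and 315 to 413 in Mtm1-/y + TAM. The 408 CPM was WT+TAM replicate 1. Of the 8, 6 were called lower in Mtm1-/y, with VE-cadherin *Cdh5* at -1.06 ± 0.17 (adjusted p 0.000400) and the VEGF receptor *Kdr* at -1.78 ± 0.38 (adjusted p 0.00401), and 5 of 8 were lower in Mtm1-/y + TAM against WT+TAM. The 8 pericyte and smooth muscle markers summed to 909 to 1056 CPM in WT and 607 to 750 in Mtm1-/y, with 5 called lower and 1 higher. Over all genes, 14.9% were called lower and 15.5% higher in Mtm1-/y against WT. In Mtm1-/y + TAM against WT+TAM, 9.46% of all genes were called lower. The part of vessel cells in the type IV values was not tested.

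The fibrillar collagens did not pass the edgeR test with all libraries in any comparison. DESeq2 called *Col11a2* lower in Mtm1-/y + TAM against WT+TAM, at -2.06 with an adjusted p of 0.0231. *Col1a1* and *Col1a2* encode the chains of type I collagen, the main fibril protein of tendon and bone. *Col1a1* was at 270, 251, 270 and 282 CPM in WT and at 16.5, 267, 162 and 435 CPM in Mtm1-/y. WT was tight and the mutant spread on both sides of it, with replicate 1 the lowest and replicate 4 the highest. The log2 fold change was -0.28 ± 0.78 at an adjusted p of 0.816. *Col1a2* was at 289, 280, 318 and 348 CPM in WT and at 34.5, 352, 208 and 627 CPM in Mtm1-/y, with a log2 fold change of -0.02 ± 0.73.

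*Col3a1*, the chain of type III collagen of soft tissue and endomysium, was at 544, 526, 742 and 667 CPM in WT and at 28.5, 600, 411 and 571 CPM in Mtm1-/y. Mtm1-/y replicate 1 was 18.5 times below the mean of the rest of its group for *Col3a1* and 17.5 times below it for *Col1a1*. Without that library the log2 fold change of *Col3a1* went from -0.62 to -0.23. *Col5a1* and *Col5a2* encode the type V chains that start fibrils. *Col5a1* was at 62.3 to 76.9 CPM in WT and at 14.1 to 54.2 in Mtm1-/y, which did not overlap, but the log2 fold change of -0.85 ± 0.43 missed the threshold at an adjusted p of 0.151. *Col5a2* was at 53.3 to 65.4 CPM in WT and 17.1 to 69.0 in Mtm1-/y, with a log2 fold change of -0.26 ± 0.48.

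The 12 fibroblast markers, of which *Tcf21* was at 0 in every library, summed to 663 to 965 CPM in WT and to 944 to 1357 in Mtm1-/y, with *Pdgfra* and *Gsn* called higher and *Cd34* and *Dpp4* lower. The 4 called were 36.4% of the 11 tested, beside 30.4% of all genes. Of the 11, 6 had a positive log2 fold change and 5 a negative one, with a median of 0.18. Mtm1-/y replicate 1 had the lowest value of the 15 libraries in 5 of the 12. Their part in the fibrillar values was not tested.

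With tamoxifen in WT, *Col1a1* was at 1376, 317, 147 and 585 CPM and *Col1a2* at 1629, 373, 196 and 660 CPM. Replicates 1, 2 and 4 lay above every WT library and replicate 3 below, and the log2 fold change of *Col1a1* against WT was 1.18 ± 0.79 at an adjusted p of 0.620. Without WT+TAM replicate 1 it was 0.38. In Mtm1-/y + TAM, *Col1a1* was at 139, 432 and 186 CPM and *Col3a1* at 369, 844 and 423 CPM, all within the range of the other groups. Against Mtm1-/y the log2 fold changes were 0.20 ± 0.84 and 0.44 ± 0.71. With standard errors of this size, changes of these genes below several-fold were not detectable.

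The tendon and cartilage fibril genes followed WT+TAM replicate 1. *Col11a1* was at 59.6 CPM there and at 0.531 to 8.58 CPM in the rest of the group, and *Col11a2* was at 119 CPM against 7.48 to 19.5 CPM. *Col11a1* had a log2 fold change of 3.35 ± 1.22 between WT+TAM and WT at an adjusted p of 0.307, and of 1.03 without that library. *Col2a1*, the cartilage collagen, stayed at 0.0530 to 1.72 CPM in all 15 libraries, and its highest values were in WT+TAM replicates 1 and 4. *Col27a1* was at 2.45 to 3.37 CPM in WT and 11.3 in WT+TAM replicate 1. *Col5a3* had 60.5 to 142 CPM over the 15 libraries and *Col24a1* 2.27 to 8.81 CPM, with adjusted p of at least 0.398 and 0.729 in the 5 contrasts.

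**Figure D4:**
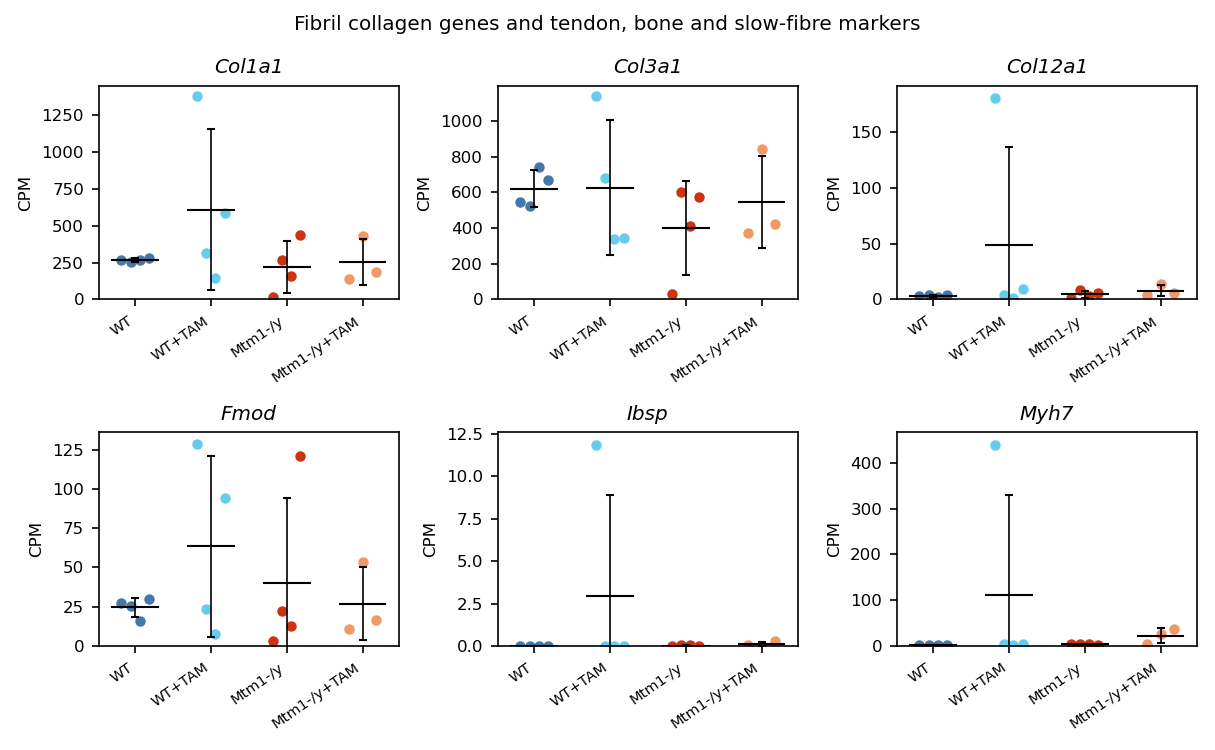
CPM (vertical axes, each from 0) of *Col1a1*, *Col3a1* and *Col12a1* above and of the tendon marker *Fmod*, the bone marker *Ibsp* and slow myosin *Myh7* below, in every library of the 4 groups, with the group mean (line) and SD (bars, cut at 0). In all 6 panels the highest point is WT+TAM replicate 1, at 1376 CPM for *Col1a1* and 11.8 CPM for *Ibsp*, and Mtm1-/y replicate 1 is the lowest point for *Col1a1* and *Col3a1*, at 16.5 and 28.5 CPM.

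Chain ratios within a library do not depend on its scaling. Per length of exon, *Col1a1* over *Col1a2* was 1.54 to 1.77 in WT and 0.905 to 1.47 in Mtm1-/y. The ranges did not overlap, and the difference in mean log2 ratio was -0.39, with an exact permutation p of 0.0286, the smallest that 4 against 4 libraries allow, and 0.229 after adjustment over 16 tests. *Col4a1* over *Col4a2* was 1.20 to 1.42 in WT and 0.834 to 1.04 in Mtm1-/y, a difference in mean log2 ratio of -0.45 with the same exact p of 0.0286 and adjusted p of 0.229. The 2 genes lie head to head on chromosome 8 and their annotated bounds share 22 bases. *Col6a3* over *Col6a1* was nearly fixed, at 0.237 to 0.260 in WT and 0.202 to 0.271 in Mtm1-/y, and Mtm1-/y replicate 1 was again the lowest. None of the 16 tests passed the adjustment. With a smallest possible exact p of 0.0286, a fully separated ratio could not pass alone, so this outcome says little on the ratios.

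Type VI collagen, the filament whose loss causes a congenital muscular dystrophy, had 4 genes that could be tested. *Col6a1* was at 98.2, 98.7, 118 and 117 CPM in WT and at 24.5, 110, 71.6 and 102 CPM in Mtm1-/y. *Col6a2* was at 101, 103, 118 and 118 CPM in WT and at 11.2, 112, 70.8 and 93.6 CPM in Mtm1-/y. *Col6a3* was at 63.4, 70.0, 79.4 and 81.7 CPM in WT and at 13.5, 73.7, 50.9 and 75.8 CPM in Mtm1-/y. In all 3 genes replicate 1 was far below the rest, and the other mutant libraries overlapped WT. The log2 fold changes were -0.48 ± 0.39, -0.61 ± 0.51 and -0.46 ± 0.42, with adjusted p from 0.377 to 0.438. In Mtm1-/y + TAM the 3 genes lay at 53.5 to 169 CPM, with replicate 2 the highest of its group in each. That library had the highest value of all 15 in 9 of the 43 collagen genes. *Col6a5* had at most 0.564 CPM and *Col6a4* at most 0.370 CPM.

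Among the fibril-associated collagens, *Col12a1* and *Col16a1* marked WT+TAM replicate 1. *Col12a1*, a collagen of tendon and dense connective tissue, was at 180 CPM there, 35.8 times the mean of the rest of its group, and at 1.30 to 13.7 CPM in the other 14 libraries. Its log2 fold change between WT+TAM and WT was 3.89 ± 1.27 at an adjusted p of 0.250, and 0.60 without that library. *Col16a1* was at 84.1 CPM there and at 3.29 to 20.6 CPM elsewhere. *Col14a1* was at 4.46 to 20.3 CPM in all libraries, with adjusted p of at least 0.576 in the 5 contrasts.

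*Col22a1* is a collagen of the myotendinous junction. It was at 61.1, 54.3, 38.1 and 41.5 CPM in WT and at 8.47, 23.8, 22.1 and 21.1 CPM in Mtm1-/y. The groups did not overlap, and its log2 fold change of -1.37 ± 0.50 narrowly missed the threshold at an adjusted p of 0.0543. DESeq2 and limma-voom called it, at adjusted p of 0.0321 and 0.0268, and the fit with a replicate block did not. With edgeR it passed at an adjusted p of 0.0127 without WT+TAM replicate 1, which held 129 CPM and enters the shared estimate of the spread. Without Mtm1-/y replicate 1 the value was -1.13 at an adjusted p of 0.133, and without both it was called at -1.13 with 0.0234. With tamoxifen the mutant libraries were at 17.9, 33.0 and 17.9 CPM and WT+TAM at 129, 34.2, 20.1 and 53.3 CPM, a log2 fold change of -1.36 ± 0.55 at an adjusted p of 0.1002.

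Type IX collagen, a partner of cartilage fibrils, was rare. *Col9a1* was at 1.75, 0.715 and 0.805 CPM in Mtm1-/y + TAM and at 4.74, 4.48, 2.19 and 1.94 CPM in WT+TAM. The groups did not overlap, and the gene was called at -1.67 ± 0.45 with an adjusted p of 0.0184. Against Mtm1-/y, at 3.97, 1.45, 3.21 and 1.59 CPM, its log2 fold change was -1.30 ± 0.45, with an unadjusted p of 0.011 and an adjusted p of 0.855. *Col9a2* was called at -2.07 ± 0.70 between Mtm1-/y + TAM and WT+TAM with an adjusted p of 0.0482, on 3 to 10 reads in a mutant library. Without WT+TAM replicate 1, which had the highest level of *Col9a2* at 1.72 CPM, it was -1.29 at an adjusted p of 0.159, and the call was lost in 17 of 25 alternatives. *Col9a3* stayed between 0.176 and 0.889 CPM and was called in no contrast.

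*Col19a1* and *Col20a1* were called higher in Mtm1-/y, with replicate 1 the highest library in both. *Col19a1*, found in basement membrane zones, was at 0.320, 0.158, 0.398 and 0.293 CPM in WT and at 4.13, 0.524, 0.604 and 0.851 CPM in Mtm1-/y. No library overlapped, and the log2 fold change was 2.39 ± 0.68 with an adjusted p of 0.0157. Without Mtm1-/y replicate 1 it was 1.18 at an adjusted p of 0.0757, and without WT+TAM replicate 1 as well it was called at 1.19 with 0.0342. Of 25 alternatives it was lost in 2, the other being limma-voom. *Col20a1* was at 8.97 to 9.86 CPM in WT and at 29.6, 10.9, 10.6 and 13.1 CPM in Mtm1-/y, with a log2 fold change of 0.79 ± 0.27 and an adjusted p of 0.0377. Without replicate 1 it was 0.31 at an adjusted p of 0.0902. The call was lost in 11 of 26 alternatives, among them limma-voom and each fit without a single WT library. An annotated transcript on the same strand, BX649560.1, overlaps *Col20a1* and had 10.5 CPM in WT, so reads of the pair may be split.

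The short-chain collagens that form networks were low in WT. *Col8a1* encodes a chain of the network around vessels. It was at 4.99, 8.18, 5.26 and 5.81 CPM in WT and at 2.88, 24.2, 13.5 and 20.8 CPM in Mtm1-/y. Replicate 1 lay below WT and the other 3 above it. The log2 fold change was 1.34 ± 0.70 at an adjusted p of 0.170, and without both libraries that stood apart it was called at 1.69 with an adjusted p of 0.00796. In Mtm1-/y + TAM it was at 11.2, 36.8 and 12.4 CPM against 25.9, 4.53, 4.34 and 5.68 CPM in WT+TAM. Without WT+TAM replicate 1 that comparison was called at 2.06 with an adjusted p of 0.0403. *Col8a2* was at 0.235 to 0.790 CPM in WT and 0.863 to 2.31 in Mtm1-/y, which did not overlap, with a log2 fold change of 1.86 ± 1.06 at an adjusted p of 0.205. WT+TAM replicate 1 held 15.8 CPM of it, and without that library the gene was called at an adjusted p of 0.0397.

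*Col10a1*, the collagen of growth-plate hypertrophic cartilage, had reads in the mutant libraries alone, and was named after its values were seen. The 8 libraries of WT and WT+TAM held 0 reads each. The Mtm1-/y libraries held 349, 7, 49 and 8 reads, or 9.12, 0.282, 1.56 and 0.179 CPM. The Mtm1-/y + TAM libraries held 123, 9 and 143 reads, or 6.52, 0.238 and 3.60 CPM. The genotypes did not overlap, but levels within a mutant group differed by over an order of magnitude. A fold can be given only as a bound. In TMM-scaled CPM and with a floor of 3 reads over the WT group, the mean of *Col10a1* was at least 114-fold higher in Mtm1-/y, and at least 27.5-fold higher without Mtm1-/y replicate 1. The lowest Mtm1-/y library alone was at least 7.32-fold higher. With a floor of 3 reads over the WT+TAM group, the mean in Mtm1-/y + TAM was at least 129-fold higher, at least 71.5-fold higher without its replicate 1, and at least 8.88-fold higher in its lowest library. The gene passed the filter on low counts through the mutant groups alone. The edgeR test did not call it, with adjusted p of 0.0616 and 0.0817, while DESeq2 called it in both comparisons at 0.000105 and 0.000357. As the gene was named after its values were seen and passed the filter through the mutants alone, these p-values add no support.

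The library richest in *Col10a1*, Mtm1-/y replicate 1, had 0 CPM of *Acan*, the cartilage proteoglycan, and 0.0261 CPM of *Ibsp*. The 7 cartilage and bone markers summed to 1.33 to 2.09 CPM in WT, 2.07 to 3.26 in Mtm1-/y and 2.28 to 3.07 in Mtm1-/y + TAM. WT+TAM replicate 1, with a sum of 36.8 CPM, had no read of *Col10a1*. The 1 marker of the list that passed the filter, the transcription factor *Sox9*, was called higher at 0.87 ± 0.23 in Mtm1-/y, and at 1.74 ± 0.26 in Mtm1-/y + TAM against WT+TAM. The part of such cells in the *Col10a1* reads was not tested. *Col10a1* lies at chr10:34389981-34397085 inside *Nt5dc1*, a gene on the opposite strand that was at 6.30 ± 0.419 CPM in WT and 9.36 ± 1.74 in Mtm1-/y (SD, n = 4 each). Of 51 exon records of *Nt5dc1*, 1 lies at least in part within the bounds of *Col10a1*. Whether it meets an exon of *Col10a1* was not checked. The library kit keeps the strand, but the sources do not say whether counting used it, so how reads in the overlap were assigned is not known.

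The multiplexins *Col15a1* and *Col18a1* lie in basement membrane zones and release fragments that act on vessels. *Col15a1* was at 80.6, 98.5, 121 and 126 CPM in WT and at 3.53, 56.0, 38.1 and 57.2 CPM in Mtm1-/y. No library overlapped. The log2 fold change was -1.46 ± 0.60 at an adjusted p of 0.0827, with replicate 1 14.3 times below the mean of the rest of its group. Without that library it was called, at -1.08 with an adjusted p of 0.0335. With tamoxifen the mutant libraries held 31.9, 74.6 and 44.4 CPM and WT+TAM held 62.5, 123, 51.0 and 64.2 CPM, a log2 fold change of -0.58 ± 0.64. *Col18a1* was at 12.8 to 15.8 CPM in WT and 4.34 to 14.1 in Mtm1-/y, with a log2 fold change of -0.58 ± 0.34 at an adjusted p of 0.220.

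The transmembrane collagens gave a call in each direction. *Col17a1*, known from the hemidesmosomes of skin, was at 1.48, 1.42, 1.55 and 1.52 CPM in WT and at 0.314, 0.0806, 0.413 and 0.157 CPM in Mtm1-/y. That was 35 to 60 reads in a WT library and 2 to 13 in a mutant library. The groups did not overlap, and the log2 fold change of -2.59 ± 0.49, with an adjusted p of 0.00120, was called under all 26 alternatives. With tamoxifen it was at 0.318, 0.159 and 0.855 CPM in the mutant and 0.572, 1.73, 1.04 and 0.953 CPM in WT+TAM, a log2 fold change of -1.21 ± 0.51 at an adjusted p of 0.110.

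*Col23a1*, a shed membrane collagen, was at 3.27, 2.69, 3.01 and 3.46 CPM in WT and at 13.3, 5.36, 6.93 and 4.84 CPM in Mtm1-/y. All mutant libraries lay above WT, and the gene was called at 1.29 ± 0.32 with an adjusted p of 0.00709. It was also called without replicate 1, at 0.87 with an adjusted p of 0.0169. WT+TAM libraries, at 7.39, 5.45, 3.96 and 4.69 CPM, also lay above all WT libraries, but that comparison was not called (log2 fold change 0.78 ± 0.32, adjusted p 0.368). With tamoxifen in both genotypes the difference was 0.24 ± 0.33. The interaction of genotype and tamoxifen was -1.05 ± 0.46 at an adjusted p of 0.453.

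*Col13a1* and *Col25a1* act at the neuromuscular junction, *Col13a1* in its maturation and *Col25a1* in the innervation of muscle. *Col13a1* was at 1.03 to 1.66 CPM in WT and 1.08 to 2.62 in Mtm1-/y, a log2 fold change of 0.28 ± 0.49, and its highest value, 6.33 CPM, was in WT+TAM replicate 1. *Col25a1* was at 0.197 to 0.586 CPM in WT and 0.179 to 0.653 in Mtm1-/y, a log2 fold change of 0.15 ± 0.49. Neither gene was called in any contrast.

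*Col7a1*, which encodes the anchoring fibrils below skin epithelium, lies at chr9:108953586-108984875 and was the gene called higher in both genotype comparisons. It was at 69.1, 57.2, 47.3 and 50.7 CPM in WT and at 263, 111, 119 and 107 CPM in Mtm1-/y. The lowest mutant library was above the highest WT library, and the log2 fold change was 1.42 ± 0.27 with an adjusted p of 0.00158. Replicate 1, which was low for most collagens, was the highest of all libraries for *Col7a1*. Without it the log2 fold change was 1.00 with an adjusted p of 0.000508.

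With tamoxifen, *Col7a1* was at 113, 99.7 and 99.9 CPM in the mutant and at 73.4, 42.1, 50.6 and 46.6 CPM in WT+TAM. The groups did not overlap, and the log2 fold change was 0.97 ± 0.28 with an adjusted p of 0.0272. This call was lost in 8 of 26 alternatives, with adjusted p up to 0.0821. Against Mtm1-/y the treated mutants had a log2 fold change of -0.52 ± 0.29 at an adjusted p of 0.855. Without replicate 1 the untreated mutants were at 107 to 119 CPM, beside 99.7 to 113 CPM in the treated.

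**Figure D5:**
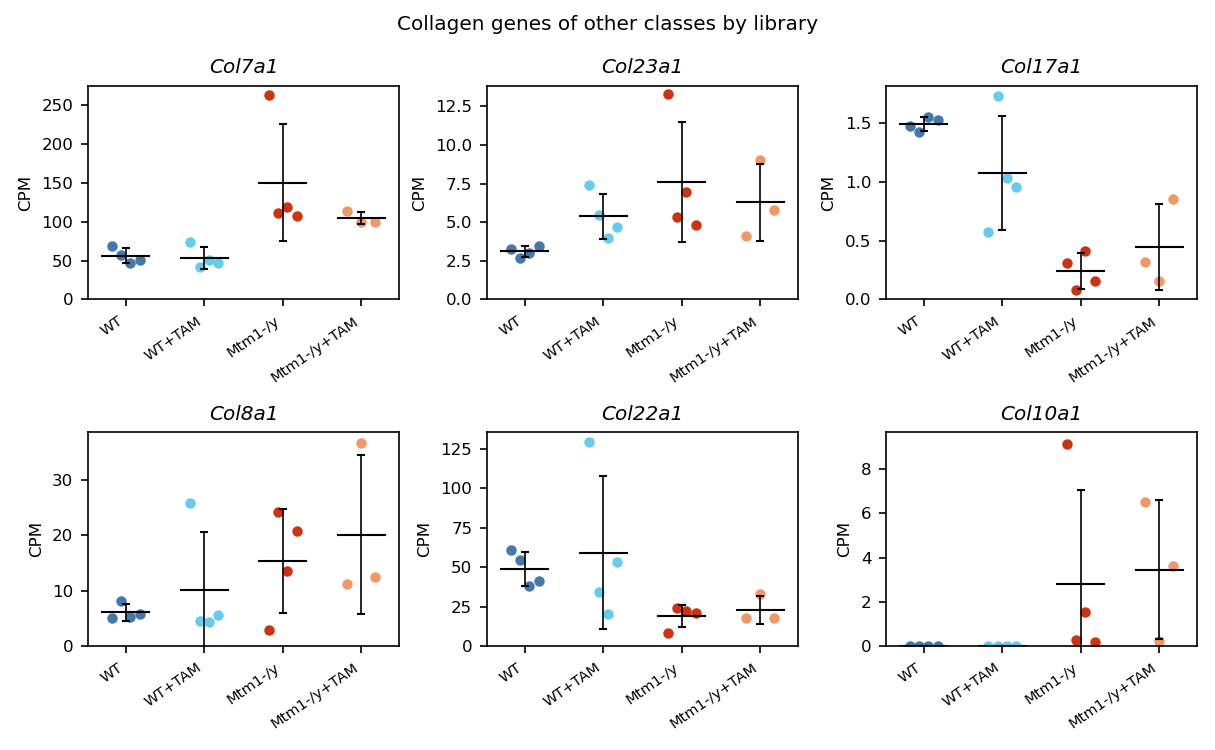
CPM (vertical axes, each from 0) of *Col7a1*, *Col23a1*, *Col17a1*, *Col8a1*, *Col22a1* and *Col10a1* in every library of the 4 groups, with the group mean (line) and SD (bars, cut at 0). *Col7a1* is above 99 CPM in all 7 mutant libraries and below 74 CPM in all 8 others, and *Col10a1* is at 0 in all 8 libraries of WT and WT+TAM.

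*Col26a1*, a small collagen first found in testis and ovary, was at 2.26, 2.33, 3.63 and 3.11 CPM in WT and at 0.810, 1.98, 0.794 and 0.806 CPM in Mtm1-/y. The groups did not overlap, with a log2 fold change of -1.39 ± 0.41 and an adjusted p of 0.0174. It was called under all 26 alternatives, at adjusted p up to 0.0492. With tamoxifen the log2 fold change was -0.88 ± 0.44 at an adjusted p of 0.171. *Col28a1*, a collagen of nerve, was at 0.362 to 2.30 CPM over the 15 libraries and had no call.

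Between Mtm1-/y + TAM and Mtm1-/y the median of the 42 log2 fold changes was 0.26, with 29 positive, but -0.21 without Mtm1-/y + TAM replicate 2, 0.06 without Mtm1-/y replicate 1 and 0.17 without Mtm1-/y replicate 3. Its highest value was 0.44, without Mtm1-/y + TAM replicate 1. With all libraries 1 gene, *Col9a1*, had an unadjusted p under 0.05, beside 5.54% of all genes. DESeq2 and limma-voom also called 0. Between WT+TAM and WT the median was 0.16, and -0.14 without WT+TAM replicate 1. Over the other single libraries left out it was 0.05 to 0.31, with the lowest values without WT replicate 1 (0.05), WT+TAM replicate 2 (0.06) and WT replicate 2 (0.08) and the highest without WT+TAM replicate 3 (0.31) and WT replicate 4 (0.25). With all libraries, 11 genes had an unadjusted p under 0.05, beside 11.3% of all genes, and 0 were called by edgeR or limma-voom. Without WT+TAM replicate 1 the 11 were 3. Of the 11, *Col8a2* was called by DESeq2 at 3.36 with an adjusted p of 0.0373, and WT+TAM replicate 1 held most of its reads in the group. Without both libraries that stood apart, *Col20a1* was the single collagen gene called in this comparison, at 0.62 ± 0.13 with an adjusted p of 0.0248. In that fit 2.26% of all genes were called. The interaction called 0 of 42, with 2 genes at an unadjusted p under 0.05, beside 10.6% of all genes. By DESeq2 and limma-voom the interaction also called 0. The 4 comparisons share libraries, so their values are not independent of each other.

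The count between Mtm1-/y + TAM and WT+TAM depended on single libraries. It was 7 with all, beside 20.1% of all genes, and 2 without Mtm1-/y + TAM replicate 2, beside 10.6% of all genes. It was 3 without Mtm1-/y + TAM replicate 3 (13.5% of all genes) and 3 without WT+TAM replicate 2 (16.8%). It was 4 without WT+TAM replicate 4 (16%) and 4 without WT replicate 2 (18.3%). Without Mtm1-/y replicate 1 it was 10, beside 26.8% of all genes. Over the 42 genes the median log2 fold change, -0.55 with all libraries, was 0.12 without WT+TAM replicate 1.

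Genes that make, process, bind and respond to collagen were read from fixed lists. Of 22 folding and modification genes, 1 rose and 3 fell in Mtm1-/y, 18.2% called against 30.4% of all genes. The prolyl hydroxylase chain *P4ha2* fell at a log2 fold change of -0.64 ± 0.11 (adjusted p 0.000586), the glycosyltransferase *Colgalt2* fell at -0.99 ± 0.19 (adjusted p 0.00111) and the prolyl isomerase *Fkbp14* fell at -0.45 ± 0.14 (adjusted p 0.0219), while the endoplasmic reticulum cation channel *Tmem38b* rose at 0.68 ± 0.13 (adjusted p 0.00137). Of 13 genes of propeptide cleavage and crosslinking, the lysyl oxidase *Lox* rose at 1.47 ± 0.50 (adjusted p 0.0405) and the propeptidase *Adamts14* fell at -1.22 ± 0.27 (adjusted p 0.00343). The share called in the latter list was 15.4%, and the median log2 fold changes of the 2 lists were -0.06 and -0.21.

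Of 13 breakdown genes tested, the metalloproteinase inhibitor *Timp1* alone was called, and it rose at 2.81 ± 0.56 in Mtm1-/y (adjusted p 0.00242) and at 3.14 ± 0.59 in Mtm1-/y + TAM against WT+TAM (adjusted p 0.00294). Of 16 fibril organisers, tenascin *Tnxb* fell at -0.63 ± 0.21 (adjusted p 0.0380). Of 7 collagen receptors tested, *Itgb1* rose at 0.67 ± 0.14 (adjusted p 0.00251) and *Ddr1* rose at 0.43 ± 0.11 (adjusted p 0.00822), while *Itga1*, which pairs with *Itgb1* to bind type IV collagen, fell at -1.07 ± 0.16 (adjusted p 0.000231). With tamoxifen the same 3 receptors were called in the same directions. Of 11 genes of TGF-beta signalling, which drives collagen transcription in fibroblasts, 3 rose and 0 fell. The shares called were 7.69% for breakdown, 6.25% for fibril organisers, 42.9% for receptors and 27.3% for TGF-beta signalling, beside 30.4% of all genes.

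The 3 were the latent TGF-beta binding protein *Ltbp1* at 1.77 ± 0.18 (adjusted p 1.2e-05), *Ccn2* at 1.55 ± 0.51 (adjusted p 0.0360) and *Tgfb1* at 1.07 ± 0.26 (adjusted p 0.00623), and the list's median log2 fold change was 0.36. In Mtm1-/y + TAM against WT+TAM, *Ltbp1*, *Tgfb1* and the receptor *Tgfbr2* were higher, at 1.49 ± 0.19, 1.03 ± 0.27 and 0.56 ± 0.15. Called genes in that comparison numbered 2 of 22 for folding, 2 of 13 for cleavage and crosslinking and 0 of 16 for fibril organisers, or 9.09%, 15.4% and 0%, beside 20.1% of all genes. Tamoxifen within either genotype gave 0 calls in all 6 lists.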

How the data were processed

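The authors deposited 1 table of raw read counts per Ensembl gene for the 15 libraries, not normalized. Stranded TruSeq mRNA libraries were made from total RNA. Tools named in the submitters' processing notes are HTSeq 0.6.1p1, STAR 2.5.3a, Bowtie2 2.2.8 and cutadapt 1.10, with GRCm38 and mm10 as builds. The annotation release, read filters and strand setting are not given in the sources used. Groups came from the labels. All 30672 identifiers matched GENCODE M21, and 582 genes had no count.

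In R 4.3.3, edgeR 4.0.16 fitted 4 group means to all 15 libraries (TMM, filterByExpr with minimum count 10, robust glmQLFit and glmQLFTest, 11 residual degrees of freedom, common biological coefficient of variation 20.8%). The SE is the log2 fold change over the square root of F. The method was tested on simulated data. Ratios were compared by two-sided exact permutation. A count of 0 allows up to 3 counts, and this covers counting error only. Alternatives used DESeq2 1.42.0, limma 3.58.1 (voom), other factors and filters, a replicate block and left-out libraries.

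The collagen genes and lists were chosen with earlier results of these data known. Named genes were *Col1a1*, *Col1a2*, *Col3a1*, *Col5a1*, *Col5a2*, *Col4a1*, *Col4a2*, *Col6a1*, *Col6a2*, *Col6a3*, *Col13a1*, *Col22a1* and *Col25a1*, the collagen genes called in each contrast, up to 10 by fold change, the 3 highest and 3 lowest called genes of each list, and *Mtm1*. Other collagen genes named were chosen after their values were seen.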

Additional observations from a re-analysis of the deposited data

Results flagged for a closer look

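In 20 of 156 groups of 4 libraries, each a gene or class sum in a group, the highest library lay farther from the rest than Dixon's 95% critical value. The rule was applied to CPM without a log, a scale on which a library many-fold below the rest is hard to flag. Chance gives about 1 in 20 independent groups, but these share libraries and the sums hold their own genes, so the number of flags is no test.

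WT+TAM replicate 1 was such a library in 9 groups. It held 432 CPM summed over the fibril-associated class and 41.7 CPM over the network-forming class. Among genes it was flagged for *Col12a1* (180 CPM), *Col11a2* (119 CPM), *Col16a1* (84.1 CPM), *Col11a1* (59.6 CPM), *Col8a1* (25.9 CPM), *Col8a2* (15.8 CPM) and *Col13a1* (6.33 CPM).

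Mtm1-/y replicate 1 was such a library in 6 groups, always as the highest. Its low values were not flagged on this scale, among them *Col3a1* at 28.5 CPM, 18.5 times below the mean of the rest of its group. The 6 groups were as follows. They were *Col7a1* (263 CPM), the sum over *Col7a1*, *Col26a1* and *Col28a1* (264 CPM), *Col20a1* (29.6 CPM), *Col10a1* (9.12 CPM), *Col19a1* (4.13 CPM) and *Col9a3* (0.889 CPM).

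The other 5 were WT replicate 2 in the network-forming sum (8.97 CPM), WT replicate 4 in *Col4a3* (5.22 CPM) and *Col28a1* (1.23 CPM), WT+TAM replicate 3 in *Col6a4* (0.0724 CPM, 3 reads against 0) and Mtm1-/y replicate 2 in *Col26a1* (1.98 CPM).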

How the results depend on the processing

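No collagen gene called in either genotype comparison changed direction under an alternative. In Mtm1-/y against WT, the count of collagen genes called was 10. It lay between 9 and 12 when single libraries were left out (23.9% to 33.0% of all genes). Between Mtm1-/y + TAM and WT+TAM the count was 7, and 11 with DESeq2, *Col10a1* among them (23.8% of all genes). It was 2 to 10 when single libraries were left out (10.6% to 26.8% of all genes). In WT+TAM against WT the count was 0, and 1 with DESeq2 (1.92% of all genes). It was 1 without both libraries that stood apart (2.26%), and 0 to 1 over single libraries (0.0717% to 0.935%). The median log2 fold change in Mtm1-/y + TAM against WT+TAM was -0.55, and 0.12 without both libraries and 0.10 without WT+TAM replicates 1 and 4, an alternative chosen after seeing the data, with -0.84 to 0.12 over single libraries.

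Ratios that changed sign had differences near 0. The log2 ratio of *Col1a1* to *Col1a2* between Mtm1-/y + TAM and Mtm1-/y was 0.06, and -0.10 without both libraries, with -0.10 to 0.14 over single libraries. The ratio of *Col6a3* to *Col6a1* between Mtm1-/y and WT was -0.04, and 0.0503 without both, with -0.0916 to 0.0503 over single libraries. Over single libraries it was -0.108 to 0.0350 between Mtm1-/y + TAM and Mtm1-/y and -0.0772 to 0.0649 between Mtm1-/y + TAM and WT+TAM. The cause was not tested.

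The labels do not say whether the replicate numbers pair the samples, and the main fit treated them as unpaired. Deviations of same-numbered libraries correlated at -0.11 to 0.31, and 6 of 21 pairs were over 0.1. The median was -0.004 for same-numbered pairs and -0.013 for other pairs, which does not settle whether samples were paired. With the replicate block, 11 collagen genes were called in Mtm1-/y against WT, beside 28.8% of all genes, and 8 in Mtm1-/y + TAM against WT+TAM, beside 18%, and 0 in the other contrasts. Under the block *Col10a1* was called in both genotype comparisons (adjusted p 0.000666 and 0.00116). That gene had 0 reads in WT and WT+TAM and was named after its values were seen, so these p-values add no support. In each comparison it was called in 3 of 25 alternatives. At 1 to 13 reads a library, *Col4a6* had an SE of 0.77 in the comparison that called it.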
